A study of Mus musculus with 22 samples.

Results

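Slc6a4, Slc18a2, Abcc4 and Slc35d3 encode transporters tied to the loading of platelet dense granules. These 4 genes were chosen by name, from their known roles, among 24854 genes with a row in any table of the series, and all 4 had a row in every table. The series followed deletion of Srsf3, which encodes an RNA-binding splicing factor, in mouse megakaryocytes, the marrow cells that shed platelets, and in platelets. Knockouts are adult Pf4Cre-Srsf3fl/fl mice, whose Cre is driven by the promoter of platelet factor 4 and so acts on floxed Srsf3 mainly in megakaryocytes; their controls were Cre-negative. CD41-positive megakaryocytes were split by ploidy into 8N cells and cells of at least 16N (16N-plus), 3 samples for each ploidy and genotype, each sample a pool of 52k ± 32k sorted cells. The 10 washed platelet samples were 3 wild type, 3 Cre-negative and 4 knockout. The labelled strain was C57BL/6 for megakaryocytes, while each platelet sample carried a different C57BL number. The labels do not say whether the controls carried the floxed allele, and since Cre was present in knockouts alone, its own effect and that of Srsf3 loss cannot be told apart.

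A platelet takes up serotonin from plasma through the serotonin transporter, encoded by Slc6a4, which draws on the sodium gradient. Inside the cell the vesicular monoamine transporter VMAT2, encoded by Slc18a2, exchanges protons for serotonin and so fills the dense granule, whose acid interior is kept by the V-ATPase proton pump. Abcc4 encodes MRP4, an ATP-driven exporter of cyclic nucleotides that has been proposed to take part in the storage of adenine nucleotides. Slc35d3 encodes a member of the nucleotide sugar transporter family and is the gene mutated in the ashen-Roswell mouse, whose platelets have a dense granule defect. Dense granules release serotonin, ADP and ATP when a platelet is activated.

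The stretches of 250 bases before the RefSeq start sites of Slc6a4 and Slc18a2 are shown because these genes gave the largest effects of the set, one in megakaryocytes and the other in platelets. They come from RefSeq on GRCm38.p6, both on the plus strand, at chr11:76998347-76998596 and chr19:59260628-59260877. Capitals mark matches on either strand to a GATA word (AGATAA or the variant AGATAG, or TGATAA or the variant TGATAG) or to an ETS word (AGGAAG or the variant CGGAAG).
Slc6a4: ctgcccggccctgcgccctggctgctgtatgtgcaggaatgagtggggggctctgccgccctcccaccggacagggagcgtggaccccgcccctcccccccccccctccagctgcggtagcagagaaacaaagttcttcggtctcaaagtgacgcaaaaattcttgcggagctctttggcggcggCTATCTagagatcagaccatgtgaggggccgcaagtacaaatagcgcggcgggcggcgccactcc
Slc18a2: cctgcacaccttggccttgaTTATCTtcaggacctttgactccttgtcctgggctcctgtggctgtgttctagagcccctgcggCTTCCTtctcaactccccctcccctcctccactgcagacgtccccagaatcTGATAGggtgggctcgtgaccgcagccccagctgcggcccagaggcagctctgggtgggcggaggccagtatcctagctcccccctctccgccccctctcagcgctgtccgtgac
The Slc6a4 stretch held 1 GATA match, at bases -65 to -60 from the start site, and 0 ETS matches. The Slc18a2 stretch held 2 GATA matches, at -230 to -225 and -115 to -110, and 1 ETS match, at -166 to -161. Neither Slc35d3 nor the upstream start site of Abcc4 had a match to either motif, while the second Abcc4 start site in RefSeq had 1 GATA match. None of the stretches held the RUNX word TGTGGT or the NF-E2 and AP-1 words TGAGTCA and TGACTCA. Over 32851 promoter stretches of the same length, 26.5% held a GATA match, 39.2% an ETS match, 14% a RUNX match and 4.46% an NF-E2 or AP-1 match, so a GATA match is a common event.

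The deposited data are the authors' own comparisons, so a level per sample is not given here and no spread between samples can be shown. Megakaryocyte values are log2 fold changes from stranded total RNA libraries, called at the authors' edgeR adjusted p under 0.05 over 9326 genes. Their standard error (SE) was derived here, by dividing the absolute fold change by the root of the F score, and intervals are 95% intervals from it. Platelet values are log2 fold changes with the authors' own SE from an amplicon panel on an Ion Proton, called at the DESeq2 adjusted p under 0.05 over 12611 genes. Which platelet controls entered that comparison is not stated. Depth per library is unknown. A positive sign is read as higher in knockouts, or higher at 16N-plus. The tables do not state this direction. In megakaryocytes it was read from lineage markers, which then rise with ploidy, and the ploidy and genotype tables are tied to each other in sign because their differences match. In platelets it was read from platelet markers, which are then lower in knockouts as in megakaryocytes. The direction of those markers is therefore no finding; all signs could be reversed together, and the platelet signs could be reversed alone. The targeted gene does not settle it: in the authors' deposited table Srsf3 was at 0.33 (SE 0.21; edgeR adjusted p = 0.80) in 8N and at 0.43 (SE 0.27; adjusted p = 0.56) in 16N-plus cells. Over both ploidies it was at 0.38 in the authors' deposited table (SE 0.17, interval 0.04 to 0.72; edgeR p = 0.028 unadjusted, adjusted p = 0.28), a sign opposite to loss of the deleted gene under the direction read here. A gene-level value also covers exons outside the deleted part. In platelets Srsf3 had no row, so neither the sign nor its loss could be read from it there. These are bulk samples, so fewer cells of a type and less RNA per cell cannot be told apart.

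All 4 transporters were detected in megakaryocytes, at different levels per length. Slc6a4 (ENSMUSG00000020838, GRCm38 chromosome 11, 76998603 to 77032340, plus strand) had a mean of 5.85 on the scale of log2 CPM per kilobase of exon, above or equal to 90.7% of the genes in the tables. Slc35d3 (ENSMUSG00000050473, chromosome 10, 19847916 to 19851459, minus strand) was next, at 5.60 log2 CPM per kilobase. Abcc4 (ENSMUSG00000032849, chromosome 14, 118482692 to 118706219, minus strand) was at 4.57 on that scale. Slc18a2 (ENSMUSG00000025094, chromosome 19, 59260896 to 59296012, plus strand) had the lowest mean level of the 4, at 3.02 log2 CPM per kilobase, in the lower part of the measured genes (percentile 22.2). An antisense gene, Gm29261, shares exon bases with Slc18a2; whether the authors' counting used strand is not given in the sources used here, so Slc18a2 reads cannot be fully separated from it.

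Slc6a4, the serotonin uptake gene, was the member that changed with both ploidy and genotype in megakaryocytes. In controls it rose with ploidy by a log2 fold change of 2.07 in the authors' deposited table (SE 0.23, interval 1.62 to 2.53; edgeR adjusted p = 9.6e-15), which is 4.21-fold. That placed it at rank 19 from the top among 9326 genes. In knockouts it rose by 0.68 in the authors' deposited table (SE 0.17, interval 0.35 to 1.02; edgeR adjusted p = 0.0051), which is 1.60-fold. Of all genes, 4.74% were called higher and 2.51% lower in the control step, and 2.1% higher and 1.21% lower in the knockout step. Slc6a4 kept a step of 1.05 in controls (adjusted p = 9.6e-06, normal approximation on the edgeR values) when fold changes were set against the median of 15 megakaryocyte and platelet markers. In knockouts the same scaling took it to -0.028 (adjusted p = 0.88), without a call, beside a median of those markers of 0.71. This scaling takes the marker median as exact. Most genes were called under it in both ploidy steps, so a call there is a common event.

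Loss of Srsf3 went with lower Slc6a4 RNA at both ploidies. In 8N cells it fell by 1.51 in the authors' deposited table (SE 0.18; edgeR adjusted p = 4.2e-12), which is 2.86-fold lower. In 16N-plus cells it fell by 2.91 in the authors' deposited table (SE 0.25; edgeR adjusted p = 3.6e-23), to 13.3% of the control level. With all signs reversed these would be rises of 2.86-fold and 7.51-fold. The values were the 6th and 5th lowest (or, reversed, highest) fold changes of 9326 genes, in tables where 1.14% and 3.12% of genes were called lower, and 0.3% and 0.386% higher. The table over both gates holds, gene by gene, the average of the 8N and 16N-plus genotype values, and listed Slc6a4 at -2.21 in the authors' deposited table (SE 0.16; edgeR adjusted p = 3e-31), and 3.57% of genes were lower there and 0.622% higher. Set against the median marker, Slc6a4 was still lower, at -1.10 in 8N (adjusted p = 7.7e-08, normal approximation on the edgeR values) and -2.19 in 16N-plus cells (adjusted p = 4.8e-17). A large share of all genes was called under that scaling in both gates (counts are given at the end). A call alone is thus a common event there, and its adjusted p takes the marker median as exact.

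The genotype effect on Slc6a4 was larger in 16N-plus than in 8N cells. The difference of the genotype effects was -1.39 (SE 0.31, interval -2.00 to -0.79; adjusted p = 0.0019, normal approximation on the authors' edgeR values over 9254 genes), where 0.562% of genes were called lower and 0.173% higher. In the same test 2 of 6 lymphoid markers were called higher, Ighm at 2.12 (SE 0.40) and Igkc at 1.77 (SE 0.36). Of 14 neutrophil markers 2 were called higher, Mmp9 at 1.82 (SE 0.36) and Lcn2 at 1.64 (SE 0.38). All neutrophil markers lay above 0, from 0.04 to 1.82, with a median of 0.84. Of them, 9 had an unadjusted p under 0.05 by the normal approximation, against 7.89% of all genes. The part of these markers in the Slc6a4 difference was not tested. The 15 lineage markers had a median of -0.37 in this test, the same sign as Slc6a4, with 0 called. Of them, 5 had an unadjusted p under 0.05 by the normal approximation. The Slc6a4 difference was not set against the median marker. The test takes the gates as independent, and the labels do not say whether both came from the same mice. Placed on 1 scale with 8N controls at 100%, the Slc6a4 level was 421% in 16N-plus controls, 56.1% in 16N-plus knockouts and lowest in 8N knockouts. The order from the highest was thus 16N-plus control, 8N control, 16N-plus knockout, 8N knockout; with all signs reversed it would run the other way, with 8N knockouts highest. Of the steps between neighbours in that order, the first and the last are the ploidy steps called above. The 4 comparisons share libraries, so their values are not independent of each other. The middle step, from 8N controls to 16N-plus knockouts, was not tested by the authors; it was -0.83, with an interval of -1.44 to -0.23 when its SE is taken as 0.31, that of the difference of genotype effects, which is an upper bound if groups are independent.

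**Figure D1:**
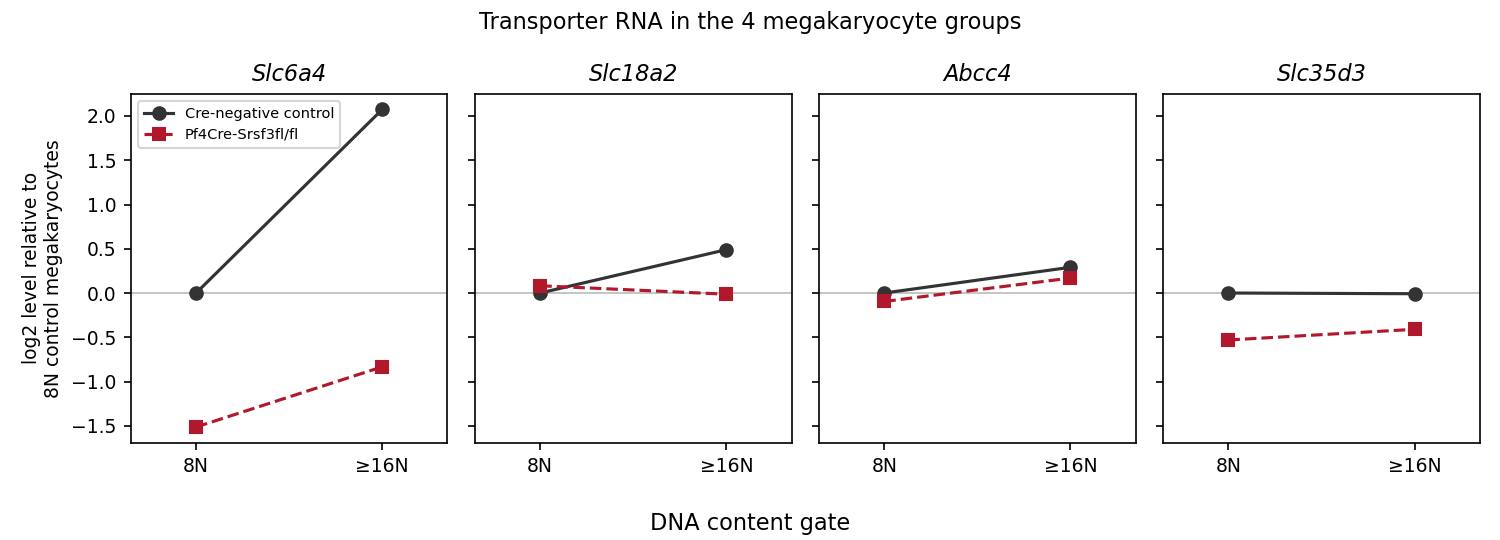
Level of each transporter's RNA in the 4 megakaryocyte groups, as log2 relative to 8N controls (y axis), against the DNA content gate (x axis), with points for group values reconstructed from the deposited fold changes and no error drawn. Slc6a4 runs from -1.51 in 8N knockouts to 2.07 in 16N-plus controls, while the other 3 transporters stay between -0.53 and 0.49.

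Slc18a2, the gene of the vesicular monoamine transporter, did not pass in any megakaryocyte comparison. Its mean level there was low, at 5.41 log2 CPM, where the lowest of any gene was 4.23. In controls its ploidy step was 0.49 in the authors' deposited table (SE 0.24; edgeR p = 0.039 unadjusted, adjusted p = 0.24), and in knockouts it was -0.10 (SE 0.15; adjusted p = 0.87). Its genotype value was 0.08 in 8N cells in the authors' deposited table (SE 0.16, interval -0.24 to 0.40; edgeR adjusted p = 0.99). In 16N-plus cells it was -0.50 in the authors' deposited table (SE 0.24, interval -0.98 to -0.03; edgeR p = 0.038 unadjusted, adjusted p = 0.36). The difference between these genotype effects was -0.59 (SE 0.29; adjusted p = 0.61, normal approximation on the edgeR values). With 8N controls at 100%, the 4 groups lay between 99.1% and 140%, and none of the 4 deposited comparisons between them passed.

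Abcc4, the MRP4 gene, had the smallest genotype values of the 4 in megakaryocytes when both ploidies were combined. It was at -0.11 in the authors' deposited table (SE 0.16; edgeR adjusted p = 0.83), with an interval of -0.42 to 0.21. Its ploidy steps were alike in size, 0.29 in controls (SE 0.24) and 0.26 in knockouts (SE 0.20, from the authors' deposited table), and neither passed (edgeR adjusted p = 0.56 and 0.64). The 4 groups lay between 93.6% and 122% of 8N controls, in an order that no passed comparison separates.

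Slc35d3, the gene of the nucleotide sugar transporter family, had lower values in knockouts of both gates, without passing. In 8N cells it was at -0.53 in the authors' deposited table (SE 0.21, interval -0.95 to -0.11; edgeR p = 0.013 unadjusted, adjusted p = 0.32), and in 16N-plus cells at -0.40 (SE 0.27; adjusted p = 0.60). The table of both ploidies gave -0.47 in the authors' deposited table (SE 0.17; edgeR p = 0.0064 unadjusted, adjusted p = 0.11), 72.4% of the control level. After centring on the median gene Slc35d3 was at -0.51 there and passed (adjusted p = 0.043, normal approximation on the edgeR values). The adjustment ranks it with genes near 0 whose derived SE is very small, such as S100a8 (5.4e-05, SE 0.00019). This pass is therefore weaker than an edgeR call, and without centring Slc35d3 was not called. Against the median marker Slc35d3 was at 0.076 without passing (adjusted p = 0.67, normal approximation on the edgeR values). Its ploidy step was -0.01 in controls (SE 0.34) and 0.12 in knockouts (SE 0.23, from the authors' deposited table). No ploidy step passed, with intervals of -0.67 to 0.65 and -0.33 to 0.57. The interval in controls is uncertain, since its SE was derived from an F score of 0.0006, and derived SEs can fail near 0.

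Over the 4 members, the median genotype value in the authors' deposited table was -0.31 in 8N and -0.45 in 16N-plus cells, against 0.01 and 0.07 over all genes. In each megakaryocyte comparison 1 of 4 members was called, and in every case it was Slc6a4. All genes together were called in 7.25% of cases in the control ploidy step, 3.31% in the knockout step, 1.44% in 8N and 3.51% in 16N-plus cells for genotype, and 4.19% with both ploidies combined.

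**Figure D2:**
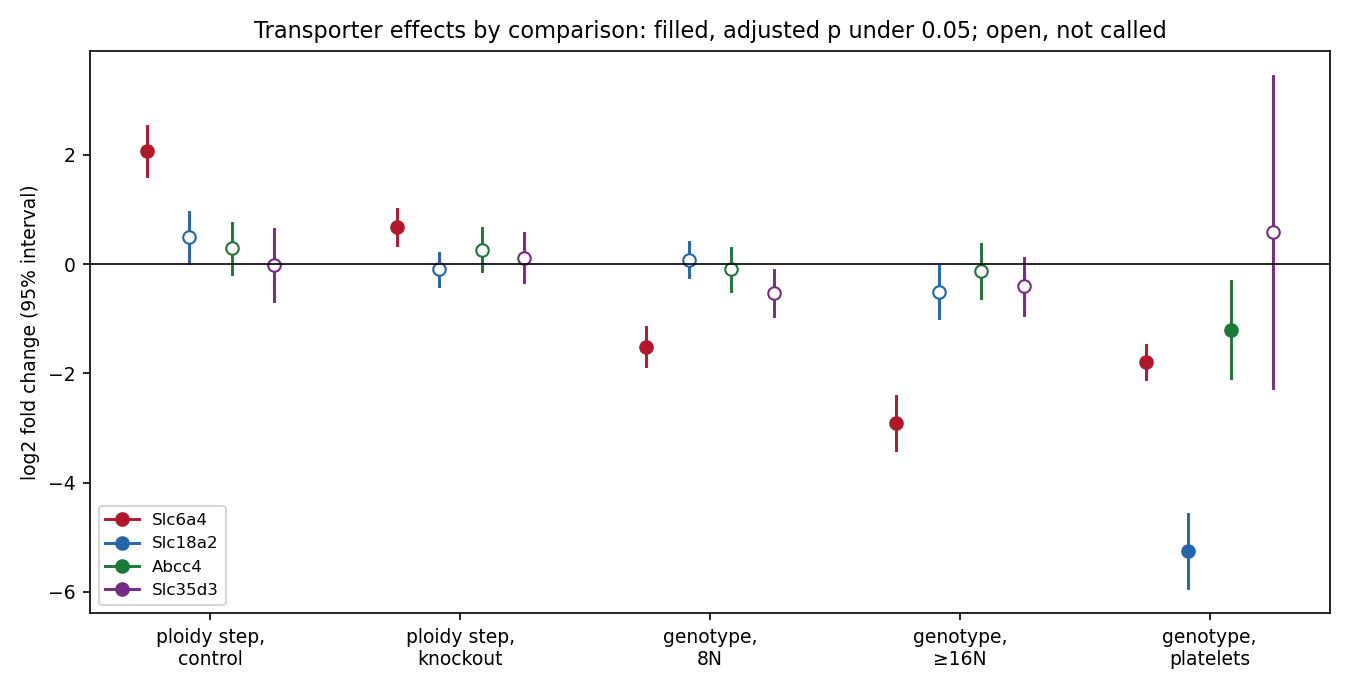
Log2 fold change of each transporter (y axis, bars show 95% intervals) in 2 ploidy and 3 genotype comparisons (x axis), with filled points called at an adjusted p under 0.05 and open points not called. Slc6a4 is called in all 5, Slc18a2 reaches -5.25 in platelets after lying between -0.50 and 0.49 in megakaryocytes, and the interval of Slc35d3 in platelets runs from -2.27 to 3.44.

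In platelets Slc18a2 had the largest effect of the tested members. There 3 of 3 tested members fell, where 25% of all genes were called lower and 53.2% were called in either direction, so a call alone is a common event there. Slc18a2 fell by 5.25 in the authors' deposited table (SE 0.35, interval -5.92 to -4.57; DESeq2 adjusted p = 2.2e-50), to 2.64% of the control level. It ranked 103 from the lowest of 12611 genes. With the platelet signs reversed it would be 37.9-fold higher and rank 103 from the highest. Its mean normalised count over the platelet libraries was 477 in the authors' deposited table. Set against the median of 14 platelet markers it was at -3.99 (adjusted p = 8.4e-30, normal approximation on the DESeq2 values).

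Slc6a4 fell by 1.79 in the authors' deposited table (SE 0.16; DESeq2 adjusted p = 1.7e-29), to 28.9% of the control level (3.46-fold higher with the platelet signs reversed), with a mean normalised count of 4585. Against the median platelet marker, itself at -1.26, it was at -0.54 and passed (adjusted p = 0.0012, normal approximation on the DESeq2 values). Most tested genes were called under that scaling, so such a pass was common. Abcc4 fell by 1.20 in the authors' deposited table (SE 0.45, interval -2.09 to -0.31; DESeq2 adjusted p = 0.017), to 43.5% of the control level (2.30-fold higher with the platelet signs reversed). Its call was lost at an adjusted p under 0.01, and against the median platelet marker it was at 0.056 (adjusted p = 0.92, normal approximation on the DESeq2 values). Slc35d3 was hardly detected in platelets, with a mean normalised count of 0.401 in the authors' deposited table, below 0.707, the lowest mean among genes with an adjusted p. No adjusted p was listed for it, and its value of 0.58 (SE 1.46, from the authors' deposited table) gives no direction.

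The megakaryocyte and platelet assays differ in chemistry and scaling, so the difference between them was not tested. Side by side, Slc6a4 was at -2.91 in 16N-plus megakaryocytes and -1.79 in platelets, Slc18a2 at -0.50 and -5.25, and Abcc4 at -0.12 and -1.20, in the authors' deposited tables.

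**Figure D3:**
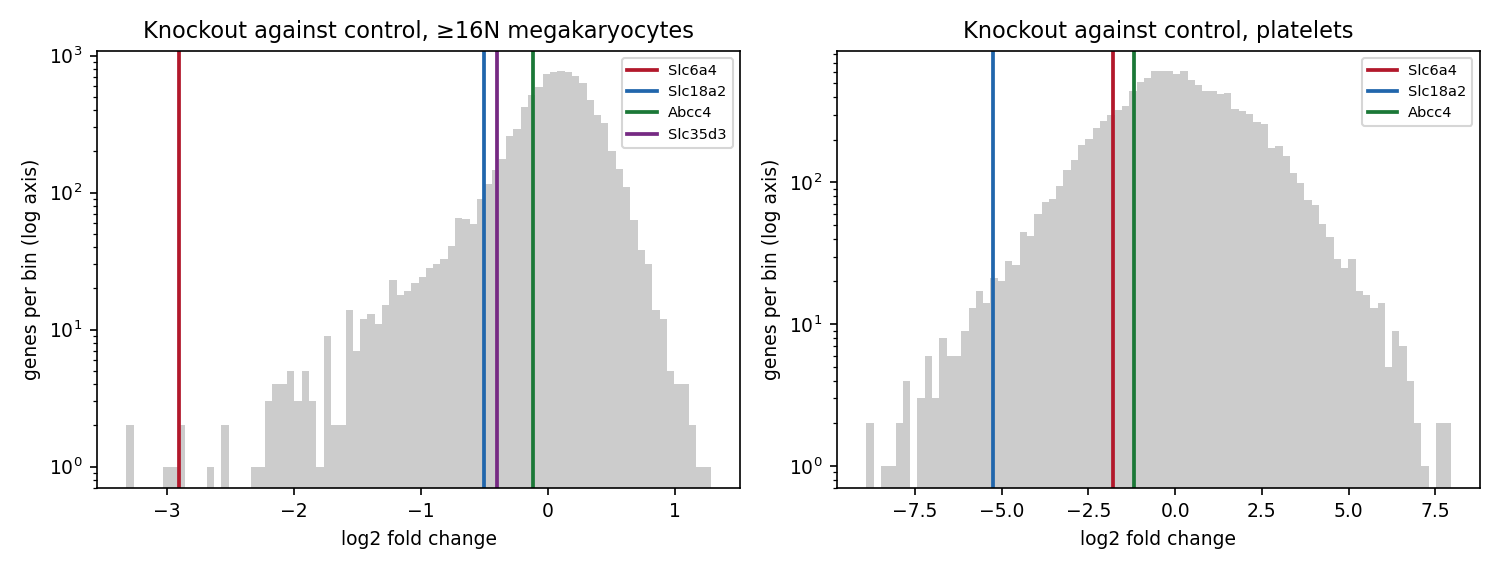
Distribution of log2 fold changes (x axis) over all tested genes, as genes per bin on a log axis, in 16N-plus megakaryocytes and in platelets, with a vertical line for each tested transporter. Slc6a4 lies in the far lower tail in megakaryocytes and inside the wide platelet distribution, where Slc18a2 lies toward the lower end at -5.25.

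Red cell RNA differed in the same platelet libraries. Of 11 tested red cell markers, 10 were called higher in knockouts and 0 lower in the authors' deposited table, with a median of 4.98 and a range of 2.22 to 6.57. Their part in the transporter values was not tested. Platelet markers were lower for 10 of 14 and higher for 0 in the authors' deposited table, with a median of -1.26. Mast cells and basophils also use VMAT2, and their markers were near the floor: of 12 markers, 6 had a platelet mean below 1, Mcpt8 and Tpsab1 were at 0, and the highest was 40.4 in the authors' deposited table. In platelets 2 of 6 tested mast cell and basophil markers were called higher, near the 28.2% of all genes, Cpa3 at 2.38 (SE 0.90) and Mrgprb1 at 1.46 (SE 0.59, from the authors' deposited table). The part of these cells in the Slc18a2 value was not tested. Of the other lists, 1 of 12 neutrophil markers, 2 of 12 monocyte and macrophage markers and 3 of 12 lymphoid markers were lower in the authors' deposited table. There 1 monocyte and macrophage marker was higher. Of all genes in platelets, 25% were called lower and 28.2% higher, so the counts of these other lists are near or below the common shares.

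In megakaryocytes all 15 lineage markers had a row. They were lower in knockouts for 5 of 15 in 8N and 8 of 15 in 16N-plus cells, with medians of -0.42 and -0.72 in the authors' deposited table. Mast cell and basophil markers had a row for 4 of 12, and by the authors' edgeR test 0 of 4 were called in any megakaryocyte comparison, with 0 at an unadjusted p under 0.05. Monocyte and macrophage markers moved beside the rise of Slc6a4 with ploidy: 12 of 14 were lower in the control step and 8 of 14 in the knockout step, with medians of -1.25 and -0.92 in the authors' deposited table. Neutrophil markers were lower for 5 of 14 in the control step and for 3 of 14 in 8N knockouts, and higher for 2 of 14 in 16N-plus knockouts, in the authors' deposited table. Lymphoid markers in the knockout ploidy step were higher for 2 of 7 (Igkc at 1.84 and Ighm at 1.48) and lower for 2 of 7 (Tcf7 at -1.31 and Lck at -0.60) in the authors' deposited table. Red cell markers were lower for 2 of 13 in 8N and 1 of 13 in 16N-plus knockouts, and lymphoid markers were lower for 2 of 7 and higher for 1 of 7 in 8N knockouts, in the authors' deposited table. Of all genes, 4.74% were called higher and 2.51% lower in the control step, and 2.1% and 1.21% in the knockout step. For genotype, 0.3% were called higher and 1.14% lower in 8N, and 0.386% and 3.12% in 16N-plus cells. The part of these other cells in the transporter values was not tested.

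Among 13 further genes of serotonin handling, 6 had a megakaryocyte row. Itgb3, the integrin beta 3 subunit that is known to associate with the serotonin transporter, was the 1 called gene in each ploidy and genotype comparison; it is also 1 of the 15 lineage markers. It rose with ploidy by 1.11 in controls (SE 0.13) and by 0.71 in knockouts (SE 0.14), and fell by 0.81 in 8N (SE 0.13) and by 1.21 in 16N-plus knockouts (SE 0.14, from the authors' deposited table). Itgb3 thus had the same signs as Slc6a4, with smaller sizes. Such signs were common among the 15 lineage markers. Of these, 12 were called higher and 0 lower in the control ploidy step, and 8 lower and 0 higher in 16N-plus knockouts. In platelets 4 of 9 tested genes of this list were lower and 0 higher, with a median of -1.05 in the authors' deposited table, where 25% of all genes were lower and 28.2% higher. They were Slc22a3, an organic cation transporter, at -2.75 (SE 0.27), Ddc, which makes serotonin from its precursor, at -2.51 (SE 0.38), Aldh2, a mitochondrial aldehyde dehydrogenase, at -1.53 (SE 0.10), and Itgb3 at -1.05 (SE 0.17, from the authors' deposited table). Tph1, the enzyme of the first step of serotonin synthesis outside the brain, is named after its values were seen: it had no megakaryocyte row and a platelet mean of 0 in the authors' deposited table.

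Of 18 genes of nucleotide storage, adenine metabolism and ADP or ATP reception, 15 had a megakaryocyte row. P2ry12, the ADP receptor coupled to Gi, rose with ploidy in controls by 1.48 (SE 0.32, from the authors' deposited table), the 1 gene of the list called there. In 16N-plus knockouts 2 fell and 0 rose in the authors' deposited table: P2ry12 at -1.71 (SE 0.33), and P2ry1, the ADP receptor coupled to Gq, at -1.08 (SE 0.31). In 8N knockouts 0 of 15 were called by the authors' edgeR test, with 2 at an unadjusted p under 0.05. Of all genes, 1.44% were called in 8N cells, and 3.12% fell and 0.386% rose in 16N-plus cells. The ADP receptors, which respond to what dense granules release, were also the lowest of the list in platelets, with P2ry1 at -7.01 (SE 0.31) and P2ry12 at -6.21 (SE 0.34, from the authors' deposited table). The nucleoside transporter gene Slc29a2 was at -4.13 (SE 0.81, from the authors' deposited table). In all, 5 of 16 fell and 4 rose, where 25% and 28.2% of all genes did. Slc17a9, the vesicular nucleotide transporter, is named for its role and after its values were seen: it had no megakaryocyte row, and in platelets it was at 1.44 (SE 0.66; DESeq2 adjusted p = 0.055) with a mean normalised count of 4.71 in the authors' deposited table.

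V-ATPase subunits, which acidify the granule, were not called for genotype in megakaryocytes. By the authors' edgeR test 0 of 17 were called in either gate's genotype comparison, with medians of 0.11 in 8N and 0.19 in 16N-plus cells. At an unadjusted p under 0.05 there were 1 in 8N and 2 in 16N-plus cells. Of all genes, 1.44% and 3.51% were called there, so 0 calls are common in a list of this size. In the knockout ploidy step Atp6v0a1 was higher by 0.80 (SE 0.22) and Atp6v0a2 by 0.74 (SE 0.22), both of the membrane sector's a subunit, while Tcirg1, another a subunit, was at -0.81 (SE 0.22, from the authors' deposited table). In platelets 8 of 16 rose and 3 fell, where 28.2% and 25% of all genes did, led by Atp6v0a1 at 2.79 (SE 0.19), Atp6v1d at 2.59 (SE 0.35), Atp6v0d1 at 2.02 (SE 0.22) and Atp6v1f at -1.75 (SE 0.17, from the authors' deposited table). Sodium pump genes, which maintain the gradient used by the serotonin transporter, had 0 of 4 called for genotype in either gate by edgeR. At an unadjusted p under 0.05 there were 0 in 8N and 1 in 16N-plus cells. Beside the same shares of all genes, 0 of 4 is also a common outcome. In platelets the beta subunit gene Atp1b3 fell by 1.87 (SE 0.12, from the authors' deposited table).

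Relatives of Abcc4 and Slc35d3 were looked at by family. Of 6 measured ABC efflux genes related to Abcc4, Abcc5, another exporter of cyclic nucleotides, was higher by 0.71 in the control ploidy step (SE 0.22) and fell by 0.73 in 16N-plus knockouts (SE 0.23, from the authors' deposited table). Abcc3, an exporter of organic anions, was lower with ploidy, at -1.24 in controls (SE 0.31) and -0.79 in knockouts (SE 0.24, from the authors' deposited table). In platelets 3 of 5 tested rose and 0 fell, where 28.2% and 25% of all genes did: the efflux pump genes Abcb1b at 3.61 (SE 0.70), Abcg2 at 2.90 (SE 0.48) and Abcc1 at 0.48 (SE 0.18, from the authors' deposited table). Of 17 measured relatives of Slc35d3 in the SLC35 family, 0 were called for genotype in either gate by edgeR. At an unadjusted p under 0.05 there were 0 in 8N and 1 in 16N-plus cells. Of all genes, 1.44% in 8N and 3.51% in 16N-plus cells were called, so 0 calls are common in a list of this size. In platelets 6 of 19 SLC35 genes rose and 6 fell, shares near the 28.2% and 25% of all genes, with Slc35d2 at -3.45 (SE 0.23), Slc35e4 at -2.85 (SE 0.96), Slc35b4 at 2.49 (SE 0.37) and Slc35a3 at -2.25 (SE 0.32, from the authors' deposited table).

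Genes that build or mark the dense granule were mostly not called in megakaryocytes. The same held for all genes, of which 1.44% in 8N and 3.51% in 16N-plus cells were called for genotype. Of 21 measured genes, Rab27a, a small GTPase of granule transport, fell by 0.62 in 8N knockouts (SE 0.18, from the authors' deposited table). In 16N-plus knockouts Lyst, the Chediak-Higashi syndrome gene, fell by 1.39 (SE 0.29) and Rab27b, a GTPase of dense granule secretion, by 1.00 (SE 0.29, from the authors' deposited table). Lyst had risen with ploidy in controls by 1.64 (SE 0.29, from the authors' deposited table). In platelets 6 of 22 fell and 8 rose, where 25% and 28.2% of all genes did, with Rab27b at -3.41 (SE 0.16), Hps1 at 2.98 (SE 0.27), Lyst at -2.75 (SE 0.22) and Dtnbp1 at 2.69 (SE 0.20, from the authors' deposited table); Hps1 and Dtnbp1 encode parts of the complexes that build the organelle. Their median was 0.01, against 0.02 over all genes.

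**Figure D4:**
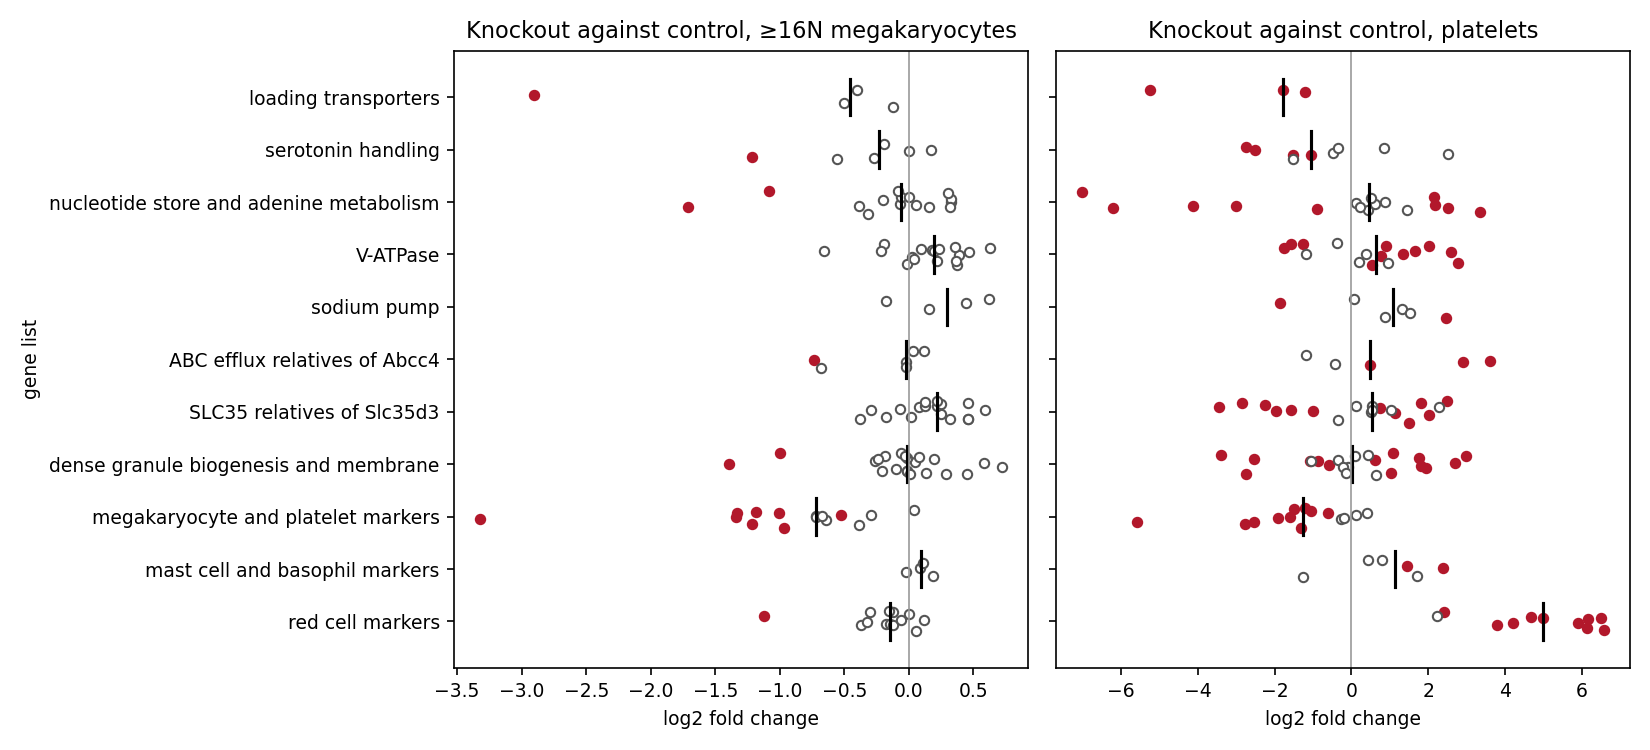
Log2 fold change of knockout against control (x axis) for the genes of each list (y axis) in 16N-plus megakaryocytes and in platelets, with red points called at an adjusted p under 0.05, open points not called and a black bar at the list's median. V-ATPase genes lie between -0.66 and 0.63 in megakaryocytes, and red cell markers lie between 2.22 and 6.57 in platelets.

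Genes with a pattern like each member's were found by Euclidean distance over 3 log2 fold changes, the control ploidy step and the genotype effects in 8N and in 16N-plus cells. For Slc6a4 only 2 other genes lay within a distance of 0.5: Tubb2a, a beta tubulin gene, at 0.42, and the metalloproteinase gene Mmp19 at 0.44. Otud7b, a deubiquitinase gene, followed at 0.63. In platelets Mmp19 was at -7.92 (SE 0.34) and Otud7b at -4.17 (SE 0.17, from the authors' deposited table), both lower than Slc6a4 at -1.79, and Tubb2a had no row. Within the same distance of Slc18a2 lay 1075 genes, so its megakaryocyte pattern was a common one. Its nearest were Loxl3, Sumf2 and Rtn4ip1, at distances of 0.06, 0.07 and 0.08, and in platelets they were at -4.20, 1.60 and -5.17 in the authors' deposited table. A like pattern in megakaryocytes thus went with platelet values of either sign. Abcc4 had 3383 genes within 0.5, and its nearest were Lrch3 (0.01), Chmp1a (0.04) and Hbb-bt (0.04). Of these, Lrch3 was at -1.42 and Chmp1a at 0.03 in platelets in the authors' deposited table. Slc35d3 had 652 genes within 0.5, and its nearest were Ighv11-2 (0.05), Capn1 (0.09) and Trak2 (0.11). Capn1 was at 0.90 and Trak2 at 1.20 (DESeq2 adjusted p = 0.052) in platelets in the authors' deposited table.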

How the data were processed

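Deposited tables of the authors' comparisons were used: 5 for megakaryocytes and 1 for platelets. The submitters' processing notes list mm10 as build and, giving no version or role, DESeq2, edgeR, featureCounts, Subread, Picard, STAR and Trimmomatic. Per the file headers, each deposited megakaryocyte table gives log2 fold changes, log2 CPM means (4.23 at the lowest, hence filtered), an F score and each gene's raw and adjusted p-value. Per the file headers, the deposited platelet table gives a signal (mean of size-factor-scaled counts), log2 fold changes and their SE, a test score and each gene's raw and adjusted p-value. Computed here with pandas 2.3.3 and SciPy 1.17.1 were SEs and intervals, the interaction (Benjamini-Hochberg over all genes), group levels and pattern distances. The interaction test was run on simulated data whose SEs were set in advance, so that run does not check SEs derived from the F score. Derived SEs can fail near a fold change of 0: Klf1 had an SE of 2.58 in the control ploidy step. Gene IDs were matched to symbols in a table of gene names for 9300 of 9326 genes, and exon lengths came from GENCODE on GRCm38. The labels do not say that samples came from separate animals, so p-values measure the spread between samples. The members and lists were chosen with earlier results of these data known. All members are named; of each list, up to 4 called genes with the largest change per comparison and, per member, the 3 nearest genes are named; a few such genes are not reported here. Alternatives were a stricter threshold, 2 centrings, another adjustment, a filter on low expression and another source of the SE.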

Additional observations from a re-analysis of the deposited data

Results flagged for a closer look

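The genotype effect on Slc6a4 differed between the ploidy gates. The difference of the log2 fold changes was -1.39 (SE 0.31; adjusted p = 0.0019, normal approximation on the authors' edgeR values), from -1.51 in 8N and -2.91 in 16N-plus cells. Lymphoid and neutrophil markers were also called in this difference (Ighm at 2.12, Igkc at 1.77, Mmp9 at 1.82 and Lcn2 at 1.64). The neutrophil markers had a median of 0.84, and the 15 lineage markers one of -0.37 with 0 called. The part of any of these markers in the Slc6a4 difference was not tested. Samples far from the rest of their group could not be looked for, since the deposited tables used here hold no value per library.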

How the results depend on the processing

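No paired analysis was possible because the deposited tables hold no value per library, and leaving out each replicate was not run for the same reason. Slc6a4 kept its direction and its side of the threshold in 31 of 33 recomputed values. In the knockout ploidy step it lost its call under the Benjamini-Yekutieli adjustment (which leaves 0 members called, with 1 of 4 at an unadjusted p under 0.05 in the authors' edgeR test) and turned to -0.028 when centred on the median marker. The range of its 16N-plus genotype effect was -2.98 to -2.19. Abcc4 in platelets lost its call at an adjusted p under 0.01 and under Benjamini-Yekutieli (adjusted p = 0.17). Slc18a2 lies below the filter at a mean log2 CPM of 6 and got no value there, and Slc35d3, with no adjusted p in platelets, got none for that comparison.

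Centring on the median gene turned Slc35d3 in the control ploidy step to 0.10 and gave 2 called members over both ploidies. These were Slc6a4 and Slc35d3, the latter with the limit on derived SEs given above. The same centring moved the control ploidy step from 442 higher and 234 lower genes to 639 and 136. The knockout step moved from 196 and 113 to 288 and 97. Centring on the median megakaryocyte and platelet marker, chosen after seeing the data, shifts every value by the marker median (1.02, 0.71, -0.42, -0.72 and -0.54 in the megakaryocyte tables, -1.26 in platelets). That scaling alone turned Slc18a2 to -0.53 and Abcc4 to -0.73 in the control step, Abcc4 to -0.44 and Slc35d3 to -0.59 in the knockout step, and Abcc4 to 0.32 in 8N cells. In 16N-plus cells it turned Slc18a2 to 0.22, Abcc4 to 0.60 and Slc35d3 to 0.32, over both ploidies to 0.33, 0.43 and 0.076, and Abcc4 in platelets to 0.056. It called 4 and 3 members in the control and knockout steps and 2 in each of the 3 megakaryocyte genotype comparisons, and 8431, 7517, 4130, 6948 and 7333 genes in these 5 tables; in platelets it split the calls into 6432 higher and 1427 lower, against 3553 and 3154.

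At an adjusted p under 0.01 the genes called were 405 in the control step, 176 in the knockout step, 81 in 8N cells, 259 over both ploidies and 43 for the interaction, against 676, 309, 134, 391 and 68. Under Benjamini-Yekutieli they were 342, 151, 61 and 232 in the first 4, and 206 in 16N-plus cells, against 327 there. The stricter threshold and the Benjamini-Yekutieli adjustment changed only the rule for a call. The centrings moved the zero and, in megakaryocytes, also replaced the edgeR p by a normal approximation on the derived SE. That SE can be very small near a fold change of 0, as for S100a8 over both ploidies (5.4e-05, SE 0.00019). The parts of the moved zero and of this replacement in the centred counts were not tested.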
